A study of Mus musculus with 9 samples.

Results

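The 37 genes described here are markers of macrophages and dendritic cells, chosen by name from 24493 genes measured in mouse pancreatic tumor samples. They cover the complement C1q chains, Fc receptors and their signalling chains, leukocyte integrins, scavenger receptors, lysosomal proteins, growth factor and chemokine receptors, dendritic cell genes and regulators shared by leukocytes. Each of the 37 symbols had a row in the table, and 34 reached a mean of 1 TPM (transcripts per 1000000, a level per transcript length) over the 9 samples and were tested, out of 13843 genes tested. Flt3, Xcr1 and Clec9a were below that level, and their values are given without a test.

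Macrophages are phagocytes that settle in tissues or mature there from blood monocytes, survive on ligands of the receptor Csf1r, and clear dying cells and antibody-coated particles. Dendritic cells depend on the receptor Flt3 and carry antigen to T cells. Macrophages are common among the host cells of pancreatic tumors, and the transcription factor PU.1, the product of Spi1, acts at many genes of both cell types.

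The study compared polyadenylated RNA of tumors with a knockout of Usp22, which encodes a deubiquitinase of the SAGA coactivator complex, with RNA of wild-type tumors. There were 3 groups of 3 samples: the knockouts labelled Usp22-KOB and Usp22-KOA, and WT. All 9 samples carried 1 cell line, clone 6419c5, of C57BL/6 background, grown as subcutaneous implants and labelled as tumor cells of late stage. The sources used here give no meaning for A and B, no age of the hosts and no step that parted tumor cells from host cells, and 1 clone does not sample other tumors. Whether each sample is a separate mouse is also not stated, so the p-values speak only of the spread among the samples at hand, part of which may be technical.

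Usp22 had 11.8, 14.9 and 14.1 TPM in Usp22-KOB, 9.77, 8.46 and 10.1 TPM in Usp22-KOA and 55.1, 54.5 and 56.4 TPM in WT, which left 24.5% of the WT mean in Usp22-KOB and 17.1% in Usp22-KOA. The exact two-sided permutation p of the 6 knockout samples against WT was 0.0238, the smallest that the 84 possible splits allow. The summed level of 8 epithelial markers, among them keratins and claudins, was 6830 to 8349 TPM in Usp22-KOB, 6257 to 7037 TPM in Usp22-KOA and 7886 to 8385 TPM in WT, and none of these markers was absent. Counted gene by gene, 0 of the 8 were higher and 4 lower in Usp22-KOB than in WT (0 and 5 at an unadjusted p under 0.05), with a median log2 difference of -0.33, and 1 was higher and 6 lower in Usp22-KOA, with a median of -1.78 (limma). Because TPM values hold no total of reads, the depth is unknown, no counting interval can be given, and the precision rests on the spread between 3 samples. A library had 13037 to 13940 genes at 1 TPM or more.

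Macrophage and dendritic cell genes were higher in Usp22-KOB than in WT in nearly every role, while in Usp22-KOA most did not pass the test in either direction. The summed level of the 37 genes was 14710, 14399 and 8217 TPM in Usp22-KOB, 5742, 4790 and 2566 TPM in Usp22-KOA and 3255, 4951 and 3293 TPM in WT. Usp22-KOB lay above the other groups in every sample, and the values of Usp22-KOA and WT overlapped. These sums made up between 0.257% and 1.47% of a library, and Lyz2 alone gave 21.2% to 38.9% of them. In these samples, more cells of a type and more RNA per cell cannot be told apart. Whether host cells were partly removed before sequencing is not stated, so these levels may not give their share in the tumors.

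Of the 34 tested genes, 31 were higher and none was lower in Usp22-KOB than in WT (limma on log2(TPM + 1), Benjamini-Hochberg adjusted p under 0.05 over all tested genes), where 18.7% of all tested genes were higher and 18.4% lower. At an unadjusted p under 0.05, 32 were higher and 0 lower. The adjusted p of the called genes ran between 0.00115 and 0.0329, and the 3 others were Lyz1, Ccr2 and Cx3cr1. The ratio of mean TPM in Usp22-KOB to WT ran between 0.833 for Cx3cr1 and 5.69 for Cd209a, with a median of 2.91. On the log2(TPM + 1) scale, which understates the change of low genes, the median difference was 1.50, against -0.0075 over all tested genes. The 3 Usp22-KOB values all lay above the 3 WT values for 29 of the 34 genes, a pattern that 25.0% of all tested genes showed. The values of Fcgr1 and Aif1 overlapped, although both were called.

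In Usp22-KOA against WT, 2 genes were higher, Cd14 and Cd53, and 3 were lower, Cd163, Lyz1 and Cx3cr1, while 29 did not pass the test. Over all tested genes, 29.4% were higher and 26.9% lower, so the share of macrophage and dendritic cell genes called was below the background in both directions. At an unadjusted p under 0.05 the counts were also 2 higher and 3 lower. The adjusted p of the 5 called genes ran between 7.98e-05 and 0.0414, and the median log2 difference of the 34 genes was 0.12. The values of the 2 groups were apart for the same 5 genes, against 34.2% of tested genes apart and higher and 31.1% apart and lower. The ratio of mean TPM ran between 0.267 for Cd163 and 2.70 for Cd53. Leaving out Usp22-KOA replicate 3 brought the number of higher genes to 7, with Tyrobp, Itgb2, Mrc1, Ctss and Mpeg1 added, and leaving out WT replicate 2 brought it to 4, with Mrc1 and Aif1 added.

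The knockouts were then compared with each other. In Usp22-KOB against Usp22-KOA, 27 of the 34 genes were higher and 1, Cd14, was lower, where 24.2% of all tested genes were higher and 27.5% lower. The values of 24 genes were apart and higher in Usp22-KOB, against 27.1% of all tested genes, and those of Cd14 were apart and lower, against 31.3%. Fcgr1, Tyrobp, Ptprc, Aif1, Cd53 and Ccr2 did not pass the test. The ratio of mean TPM in Usp22-KOB to Usp22-KOA ran between 0.794 for Cd14 and 11.0 for Cd163, with a median of 2.75. The difference on the log2 scale had a median of 1.43 and adjusted p-values of 0.000129 to 0.0437 for the called genes. The calls of Fcer1g, Mrc1, Laptm5, Batf3 and Spi1 between the knockouts each ended without Usp22-KOB replicate 1 or Usp22-KOA replicate 3. They also ended without Usp22-KOB replicate 2 except for Batf3, without Usp22-KOA replicate 2 except for Mrc1, without WT replicate 1 for Laptm5 and Spi1, and without WT replicate 3 for Spi1. The log2 differences in those fits were 0.72 to 1.26 and the adjusted p-values 0.0510 to 0.146. Both comparisons with WT use the same 3 WT samples, so they are not independent of each other.

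With both knockouts averaged against WT, 17 genes were higher and 1, Cx3cr1, was lower, where 25.9% of all tested genes were higher and 24.1% lower. Only Cd14 and Cd53 had all 6 knockout values above all 3 WT values, against 15.0% of tested genes. This count rested on single libraries: it ran between 6 and 29 as each of the 9 samples was left out. It was 29 without Usp22-KOA replicate 3 and 28 without Usp22-KOB replicate 3. It was 8 without replicate 1 or without replicate 2 of either knockout, 7 without WT replicate 1 and 6 without WT replicate 3.

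**Figure D1:**
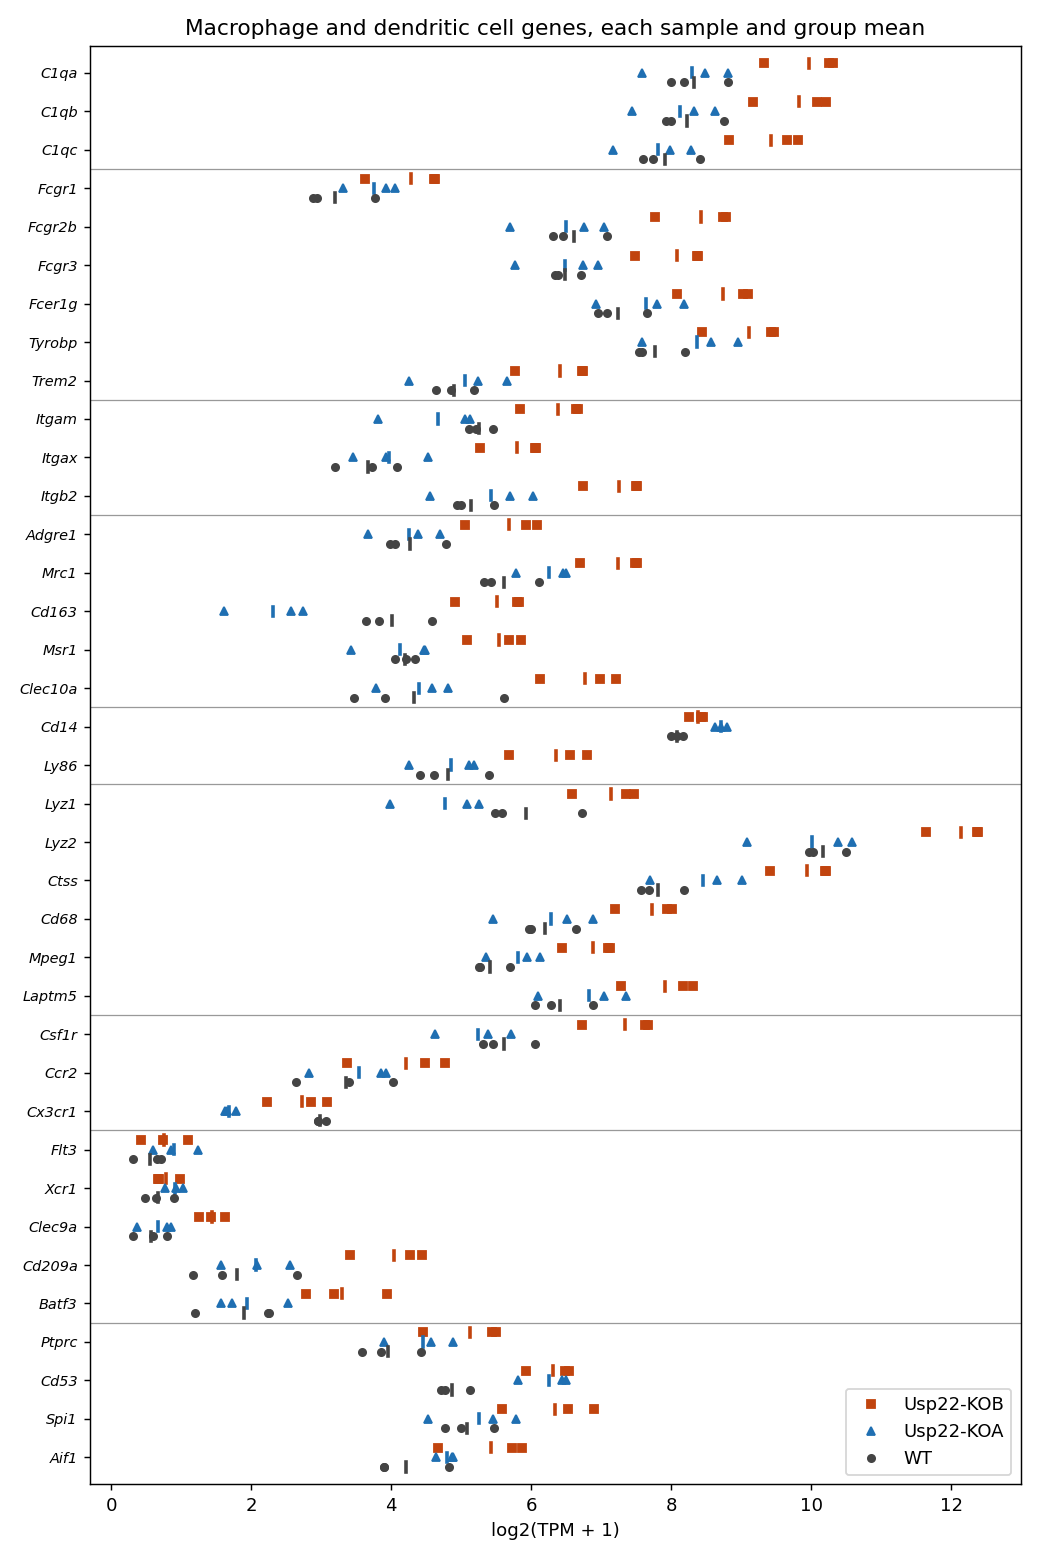
Level of each of the 37 macrophage and dendritic cell genes, as log2(TPM + 1), in each sample of Usp22-KOB (squares), Usp22-KOA (triangles) and WT (circles), with a short bar at the mean of the 3 samples and grey lines between roles. For 29 of the 34 tested genes the squares lie to the right of all circles, and for 29 the range of the triangles overlaps that of the circles.

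Within each group, samples differed in the same way for most genes. Usp22-KOB replicate 3 was the lowest sample of its group for 34 of the 34 tested genes, and Usp22-KOA replicate 3 for 32. Usp22-KOA replicate 3 was the lowest of all 9 samples for 18 genes, and WT replicate 2 was the highest WT sample for 32. Usp22-KOB replicate 3 had 0.622 times and Usp22-KOA replicate 3 had 0.580 times its group mean for the median gene, and WT replicate 2 had 1.33 times. Without both number 3 samples, a choice made after the data were examined, 33 genes were higher in Usp22-KOB and 14 in Usp22-KOA.

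Promoter sequences are shown for 6 of these genes to set the letters beside the levels: C1qb and Itgam, which were called against WT in Usp22-KOB and not in Usp22-KOA, Cd53, which was higher in both knockouts, Cd163, which was called in opposite directions, and Lyz2 and Lyz1, a pair of close relatives. The sequences are from RefSeq on build GRCm38.p6 and give the 250 bases before the annotated start of transcription in the direction of the gene. Capitals mark GAGGAA or its reverse complement, a core that PU.1 binds. C1qb was read at chr4:136886201-136886450 on the minus strand, Itgam at chr7:128062390-128062639 on the plus strand, Cd53 at chr3:106790150-106790399 on the minus strand, Cd163 at chr6:124304401-124304650 on the plus strand, Lyz2 at chr10:117282273-117282522 on the minus strand and Lyz1 at chr10:117292869-117293118 on the minus strand.
C1qb: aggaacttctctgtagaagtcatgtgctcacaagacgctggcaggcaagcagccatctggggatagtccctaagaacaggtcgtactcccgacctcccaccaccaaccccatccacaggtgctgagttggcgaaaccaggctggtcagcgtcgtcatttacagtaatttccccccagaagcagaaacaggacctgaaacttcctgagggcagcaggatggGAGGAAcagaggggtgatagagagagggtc
Itgam: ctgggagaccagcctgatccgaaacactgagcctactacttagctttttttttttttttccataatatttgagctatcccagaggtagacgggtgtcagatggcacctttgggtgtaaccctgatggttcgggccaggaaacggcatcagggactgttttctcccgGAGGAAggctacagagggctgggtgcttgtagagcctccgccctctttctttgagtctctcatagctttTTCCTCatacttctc
Cd53: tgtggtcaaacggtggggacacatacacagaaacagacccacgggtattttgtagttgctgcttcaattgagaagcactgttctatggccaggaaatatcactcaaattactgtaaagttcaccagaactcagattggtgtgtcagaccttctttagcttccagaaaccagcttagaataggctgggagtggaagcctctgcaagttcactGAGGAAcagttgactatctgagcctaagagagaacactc
Cd163: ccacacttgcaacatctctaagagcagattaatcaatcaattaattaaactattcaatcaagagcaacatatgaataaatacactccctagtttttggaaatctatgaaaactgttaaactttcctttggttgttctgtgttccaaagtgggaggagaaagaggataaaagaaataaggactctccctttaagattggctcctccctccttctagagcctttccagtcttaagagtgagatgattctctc
Lyz2: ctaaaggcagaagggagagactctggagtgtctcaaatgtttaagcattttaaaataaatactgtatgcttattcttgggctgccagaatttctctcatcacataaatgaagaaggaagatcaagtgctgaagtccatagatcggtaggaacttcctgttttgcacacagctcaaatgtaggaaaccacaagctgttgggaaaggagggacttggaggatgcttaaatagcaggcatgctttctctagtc
Lyz1: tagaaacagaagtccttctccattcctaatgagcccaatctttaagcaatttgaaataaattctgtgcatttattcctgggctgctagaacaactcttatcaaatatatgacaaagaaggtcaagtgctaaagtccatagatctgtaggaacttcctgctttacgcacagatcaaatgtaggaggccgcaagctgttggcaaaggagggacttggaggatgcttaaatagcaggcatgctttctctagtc
The motif starts 30 bases before the start of C1qb, 84 and 15 bases before that of Itgam and 39 bases before that of Cd53. A further match of Itgam and one of Cd53 lay among the 50 bases after the start, which were also searched. Sequences were found for 28 of the 37 genes. GAGGAA was present on either strand in 14 of the 28 (50.0%), against 31.3% of all 27025 genes and 28.3% of all 32851 promoters of the same length, and the composite site of PU.1 with an IRF factor in 3 (10.7%: Cd209a, Cd68 and Fcgr2b), against 3.16% of genes and 2.72% of promoters. The 2 motifs overlapped once, in Cd68. Such a match describes letters and does not show binding.

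The 3 C1q chains form the molecule that starts the classical complement pathway and are made in large amount by tissue macrophages. C1qa had 1269, 1222 and 642 TPM in Usp22-KOB, 449, 357 and 192 TPM in Usp22-KOA and 256, 448 and 289 TPM in WT. Its Usp22-KOB values all lay above those of the other groups, and the values of Usp22-KOA and WT overlapped. The log2 difference was 1.63 ± 0.37 (SE) in Usp22-KOB against WT (limma adjusted p = 0.00803) and -0.037 ± 0.37 in Usp22-KOA against WT (adjusted p = 0.94). C1qb had 1189, 1085 and 577 TPM in Usp22-KOB, 392, 319 and 172 TPM in Usp22-KOA and 254, 432 and 243 TPM in WT. C1qc had 900.0, 804 and 453 TPM in Usp22-KOB, 312, 253 and 142 TPM in Usp22-KOA and 192, 341 and 213 TPM in WT. Both followed C1qa sample by sample: the ratio of C1qb to C1qa stayed between 0.841 and 0.992 in all 9 samples and that of C1qc to C1qa between 0.658 and 0.760.

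The Fc receptors bind antibody: Fcgr1 and Fcgr3 activate the cell and Fcgr2b inhibits it, while Fcer1g and Tyrobp are the signalling chains and Trem2 is a lipid receptor that signals through Tyrobp. All 6 of these genes were higher in Usp22-KOB than in WT, where 18.7% of all tested genes were. None of the 6 passed the test in Usp22-KOA against WT, also at an unadjusted p under 0.05, where 29.4% of all tested genes were called higher and 26.9% lower. Fcgr2b had 425, 438 and 217 TPM in Usp22-KOB, 130.3, 107 and 51.2 TPM in Usp22-KOA and 78.5, 134 and 86.6 TPM in WT. Fcgr3 had 329, 333 and 178 TPM in Usp22-KOB, 123, 106 and 53.7 TPM in Usp22-KOA and 82.3, 104 and 80.2 TPM in WT. For both genes Usp22-KOB stood apart from both other groups, which overlapped. The log2 difference from WT in Usp22-KOB was 1.81 ± 0.39 for Fcgr2b (limma adjusted p = 0.00634) and 1.60 ± 0.33 for Fcgr3 (adjusted p = 0.00521). Fcgr3 shares 13.4% of its transcript 31-mers with Fcgr2b, so reads could have been split between them.

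Tyrobp had 710.4, 687 and 346 TPM in Usp22-KOB, 496, 379 and 191 TPM in Usp22-KOA and 190.5, 294 and 185 TPM in WT. Fcer1g had 547, 521 and 269 TPM in Usp22-KOB, 291, 222 and 121 TPM in Usp22-KOA and 135, 201 and 123 TPM in WT. These signalling chains are used by several leukocyte types, and in Usp22-KOA replicates 1 and 2 lay above all WT samples for both genes while replicate 3 did not. The log2 difference from WT in Usp22-KOB was 1.34 ± 0.39 for Tyrobp (limma adjusted p = 0.0242) and 1.50 ± 0.36 for Fcer1g (adjusted p = 0.0118). Between the knockouts, Fcer1g was higher in Usp22-KOB (1.09 ± 0.36, adjusted p = 0.032, a call that rested on single libraries) and Tyrobp did not pass the test (0.74 ± 0.39, adjusted p = 0.137). Fcgr1 averaged 19.5 ± 7.09 TPM in Usp22-KOB, 12.9 ± 3.52 TPM in Usp22-KOA and 8.56 ± 3.51 TPM in WT (SD, n = 3 each), and Trem2 averaged 88.2 ± 29.8 TPM in Usp22-KOB, 34.7 ± 15.7 TPM in Usp22-KOA and 29.1 ± 5.84 TPM in WT. Trem2 values of Usp22-KOB all lay above those of the other groups, and those of Fcgr1 overlapped with both.

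The leukocyte integrins pair 1 alpha chain with the beta chain Itgb2, and Itgam and Itgax are the alpha chains known as CD11b and CD11c. Itgb2 had 180.4, 181 and 106 TPM in Usp22-KOB, 64.5, 51.0 and 22.6 TPM in Usp22-KOA and 31.0, 43.2 and 29.8 TPM in WT. Itgax had 65.7, 66.3 and 37.4 TPM in Usp22-KOB, 22.1, 14.2 and 9.96 TPM in Usp22-KOA and 12.2, 15.9 and 8.22 TPM in WT. In both cases the 3 Usp22-KOB samples stood above all others, with log2 differences from WT of 2.11 ± 0.36 (limma adjusted p = 0.00226) and 2.13 ± 0.33 (adjusted p = 0.00127). Itgam had 101, 98.8 and 56.4 TPM in Usp22-KOB, 34.0, 32.2 and 13.03 TPM in Usp22-KOA and 36.1, 42.7 and 33.7 TPM in WT. Usp22-KOB was again the highest group, but the rise over WT was smaller, 1.12 ± 0.35 (adjusted p = 0.0326), and Usp22-KOA had a log2 difference of -0.59 ± 0.35 that did not pass the test (adjusted p = 0.176).

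The ratio of Itgam to Itgb2, chosen after its values were seen and given without a test, was 0.557, 0.545 and 0.533 in Usp22-KOB, 0.528, 0.631 and 0.577 in Usp22-KOA and 1.16, 0.987 and 1.13 in WT. Every knockout sample lay below every WT sample in this ratio. The ratio of Itgax to Itgb2 was 0.364, 0.366 and 0.354 in Usp22-KOB, 0.343, 0.278 and 0.441 in Usp22-KOA and 0.393, 0.369 and 0.276 in WT, and here the groups overlapped. Itgax shares 10.7% of its transcript 31-mers with Itgad, and 0 were shared between Itgam and Itgax.

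Among surface and scavenger receptors, Adgre1 is the macrophage antigen F4/80, Mrc1 the mannose receptor, Msr1 a scavenger receptor of modified lipoproteins, Clec10a a lectin for galactose-type sugars and Cd163 the receptor for complexes of haemoglobin and haptoglobin. All 5 were higher in Usp22-KOB than in WT, where 18.7% of all tested genes were, and than in Usp22-KOA, where 24.2% were. For Mrc1, however, the call against Usp22-KOA ended without Usp22-KOB replicate 1, Usp22-KOB replicate 2 or Usp22-KOA replicate 3 (log2 differences of 0.75 to 0.86, limma adjusted p-values of 0.0648 to 0.0700). Adgre1 had 67.0, 59.6 and 32.2 TPM in Usp22-KOB, 25.0, 19.9 and 11.8 TPM in Usp22-KOA and 14.8, 26.5 and 15.6 TPM in WT. Mrc1 had 178, 182 and 103 TPM in Usp22-KOB, 89.8, 86.8 and 54.2 TPM in Usp22-KOA and 39.1, 68.1 and 41.9 TPM in WT. The log2 difference from WT in Usp22-KOB was 1.42 ± 0.35 for Adgre1 (limma adjusted p = 0.0119) and 1.61 ± 0.29 for Mrc1 (adjusted p = 0.00283). In Usp22-KOA against WT it was -0.017 ± 0.35 for Adgre1 (adjusted p = 0.971) and 0.63 ± 0.29 for Mrc1 (adjusted p = 0.0952). Msr1 averaged 46.8 ± 12.5 TPM in Usp22-KOB, 17.4 ± 6.62 TPM in Usp22-KOA and 17.5 ± 1.87 TPM in WT (SD, n = 3 each). Clec10a had 147, 125 and 68.9 TPM in Usp22-KOB, 27.1, 23.1 and 12.8 TPM in Usp22-KOA and 14.1, 47.9 and 10.1 TPM in WT. One WT sample, replicate 2, lay several times above the other WT samples for Clec10a, but below all 3 Usp22-KOB samples, and the log2 difference of Usp22-KOB from WT was 2.44 ± 0.54 (adjusted p = 0.00729).

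Cd163 was the only one of the 34 genes called higher in Usp22-KOB and lower in Usp22-KOA. It had 55.8, 54.6 and 29.1 TPM in Usp22-KOB, 4.93, 5.72 and 2.06 TPM in Usp22-KOA and 11.5, 23.0 and 13.2 TPM in WT. The 3 groups did not overlap: every Usp22-KOB sample lay above every WT sample and every Usp22-KOA sample below it. The log2 difference from WT was 1.50 ± 0.37 in Usp22-KOB (limma adjusted p = 0.0127) and -1.71 ± 0.37 in Usp22-KOA (adjusted p = 0.00361), and between the knockouts it was 3.20 ± 0.37 (adjusted p = 0.000129). The mean of Usp22-KOB was 11.0 times that of Usp22-KOA, the largest ratio between the knockouts among the 34 genes. The gene lies on chromosome 6, 124304656 to 124330527 (GRCm38, GENCODE M21), and its printed promoter holds no GAGGAA.

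Cd163 was also set against the level of 1 other member, Cd68, within each sample, a choice made after the data were examined. The TPM ratio of Cd163 to Cd68, a lysosomal protein used as a macrophage marker, was 0.228, 0.212 and 0.199 in Usp22-KOB, 0.0422, 0.0635 and 0.0479 in Usp22-KOA and 0.186, 0.233 and 0.209 in WT. Usp22-KOB and WT overlapped in this ratio, and Usp22-KOA lay below both. In the same limma fit on log2 values minus that of Cd68, 33 of the genes were compared, and Cd163 was the 1 gene lower in Usp22-KOA than in WT (-1.79 ± 0.49, adjusted p = 0.00525), where 5.98% of all genes were lower. Leaving out 1 of the 9 samples at a time kept this call in 8 of 9 fits, and without WT replicate 3 the adjusted p was 0.0577. Between the knockouts the difference of Cd163 per Cd68 was 1.77 ± 0.49 (adjusted p = 0.00161), and 2 members, Cd14 and Cd53, were lower. Because Cd68 itself was higher in Usp22-KOB, the median of all genes in this fit was -1.46, with 1.05% of genes higher and 77.2% lower. Set against Ptprc, the pan-leukocyte phosphatase CD45, 3 genes were lower in Usp22-KOA than in WT, and these calls held in 9 of 9 such fits. Cd163 differed by -2.20 ± 0.46 in Usp22-KOA against WT (adjusted p = 4.31e-05), Lyz1 by -1.66 ± 0.47 (adjusted p = 0.00507) and Cx3cr1 by -1.80 ± 0.48 (adjusted p = 0.00247), with 11.7% of all genes lower. Per Ptprc in Usp22-KOB against WT, Clec10a and Cd209a were higher and Cx3cr1 was lower among the 33 genes. In that fit 0.578% of all genes were higher and 70.8% lower. Per Cd68 in Usp22-KOB against WT, 0 of the 33 were higher and 2, Cd14 and Cx3cr1, were lower. There 0.325% of all genes were higher and 87.0% lower.

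Of the pattern recognition genes, Cd14 is the co-receptor for bacterial lipopolysaccharide and Ly86 encodes MD-1, the partner of a Toll-like receptor homologue of B cells and myeloid cells. Cd14 had 343, 348 and 305 TPM in Usp22-KOB, 444, 418 and 393 TPM in Usp22-KOA and 255, 288 and 271 TPM in WT. Both knockouts lay above WT without overlap, and Cd14 was the 1 gene that was lower in Usp22-KOB than in Usp22-KOA. The log2 difference was 0.29 ± 0.07 in Usp22-KOB against WT (limma adjusted p = 0.0126), 0.62 ± 0.07 in Usp22-KOA against WT (adjusted p = 7.98e-05) and -0.33 ± 0.07 between the knockouts (adjusted p = 0.00407). The call in Usp22-KOB ended without WT replicate 1 or Usp22-KOB replicate 2, with log2 differences of 0.25 and adjusted p-values of 0.0513 and 0.0518. Cd14 had 1.35 to 2.08 times the TPM of Cd68 in Usp22-KOB, 3.80 to 9.13 times in Usp22-KOA and 2.92 to 4.30 times in WT. Ly86 averaged 84.7 ± 30.8 TPM in Usp22-KOB, 29.1 ± 9.55 TPM in Usp22-KOA and 28.4 ± 11.3 TPM in WT (SD, n = 3 each).

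Among lysosomal and antimicrobial proteins, Lyz2, the lysozyme of macrophages, was the most abundant of the 37 genes. It had 5292, 5349 and 3198 TPM in Usp22-KOB, 1535, 1328 and 543 TPM in Usp22-KOA and 1003, 1448 and 1046 TPM in WT. Ctss, a protease that acts in antigen processing, had 1181, 1172 and 680.5 TPM in Usp22-KOB, 518, 401 and 208 TPM in Usp22-KOA and 204, 291 and 189 TPM in WT. Both stood above all other samples in Usp22-KOB, by 1.96 ± 0.37 for Lyz2 (limma adjusted p = 0.00363) and 2.12 ± 0.34 for Ctss (adjusted p = 0.00162) on the log2 scale against WT. Cd68 had 244, 258 and 146 TPM in Usp22-KOB, 117, 90.1 and 43.0 TPM in Usp22-KOA and 61.8, 98.6 and 63.0 TPM in WT. Cd68 values in Usp22-KOA spanned those of WT, with a log2 difference of 0.08 ± 0.37 (adjusted p = 0.867), and in Usp22-KOB the difference was 1.51 ± 0.37 (adjusted p = 0.0115). Mpeg1, which encodes a pore-forming protein that attacks engulfed bacteria, averaged 120.3 ± 29.7 TPM in Usp22-KOB, 56.5 ± 14.9 TPM in Usp22-KOA and 41.9 ± 7.90 TPM in WT (SD, n = 3 each). Laptm5, a lysosomal membrane protein of leukocytes, averaged 252 ± 86.1 TPM in Usp22-KOB, 120.3 ± 48.3 TPM in Usp22-KOA and 86.7 ± 27.2 TPM in WT.

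Lyz1, the lysozyme of Paneth cells that macrophages can also express, was lower in Usp22-KOA than in WT, where Lyz2 had a log2 difference of -0.15 ± 0.37 (limma adjusted p = 0.749). It had 162, 176 and 95.4 TPM in Usp22-KOB, 32.8, 37.1 and 14.8 TPM in Usp22-KOA and 46.8, 105 and 44.0 TPM in WT. All Usp22-KOA samples lay below all WT samples, and WT replicate 2 reached the range of Usp22-KOB. The log2 difference of Lyz1 was -1.16 ± 0.42 in Usp22-KOA against WT (adjusted p = 0.0414), and Lyz1 was higher in Usp22-KOB than in Usp22-KOA (2.37 ± 0.42, adjusted p = 0.00152). Against WT, Usp22-KOB had a log2 difference of 1.21 ± 0.42, with adjusted p = 0.051. The call in Usp22-KOA ended when WT replicate 2, Usp22-KOA replicate 1 or 3 or Usp22-KOB replicate 1 or 2 was left out, with log2 differences of -1.31 to -0.76 and adjusted p-values of 0.0504 to 0.135. Lyz1 shares 34.2% of its transcript 31-mers with Lyz2, whose level was many times higher, so reads could have been split between them. Over the whole promoter window, 82.5% of the aligned columns of the 2 genes were identical, and neither printed promoter holds GAGGAA.

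Of the receptors, Csf1r binds the growth factors Csf1 and Il34, Ccr2 draws monocytes to Ccl2, and Cx3cr1 binds Cx3cl1. Csf1r had 202, 197 and 105 TPM in Usp22-KOB, 51.5, 40.8 and 23.8 TPM in Usp22-KOA and 42.9, 65.8 and 38.9 TPM in WT. Usp22-KOB stood above the other groups, which overlapped, with a log2 difference of 1.73 ± 0.34 from WT (limma adjusted p = 0.00415) and 2.09 ± 0.34 from Usp22-KOA (adjusted p = 0.000865). Ccr2 had 26.3, 21.4 and 9.37 TPM in Usp22-KOB, 14.2, 13.4 and 6.09 TPM in Usp22-KOA and 9.51, 15.3 and 5.27 TPM in WT. All 3 groups overlapped for Ccr2, which was not called in any of the comparisons.

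Cx3cr1 was the 1 gene with a lower mean in Usp22-KOB than in WT. It had 6.21, 7.49 and 3.68 TPM in Usp22-KOB, 2.45, 2.08 and 2.16 TPM in Usp22-KOA and 6.75, 7.36 and 6.75 TPM in WT. Usp22-KOA values lay below all others, and the values of Usp22-KOB and WT overlapped. The log2 difference from WT was -0.27 ± 0.20 in Usp22-KOB (limma adjusted p = 0.313) and -1.30 ± 0.20 in Usp22-KOA (adjusted p = 0.000426), and the difference between the knockouts was 1.03 ± 0.20 (adjusted p = 0.00215). The TPM ratio of Cx3cr1 to Cd68 was 0.0254, 0.0291 and 0.0251 in Usp22-KOB, 0.0209, 0.0231 and 0.0501 in Usp22-KOA and 0.109, 0.0746 and 0.107 in WT. Each knockout sample lay below each WT sample in this ratio. On the log2 scale per Cd68, the difference was -1.78 ± 0.52 in Usp22-KOB against WT (adjusted p = 0.00217), where 87.0% of all genes were lower, and -1.38 ± 0.52 in Usp22-KOA (adjusted p = 0.0777).

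**Figure D2:**
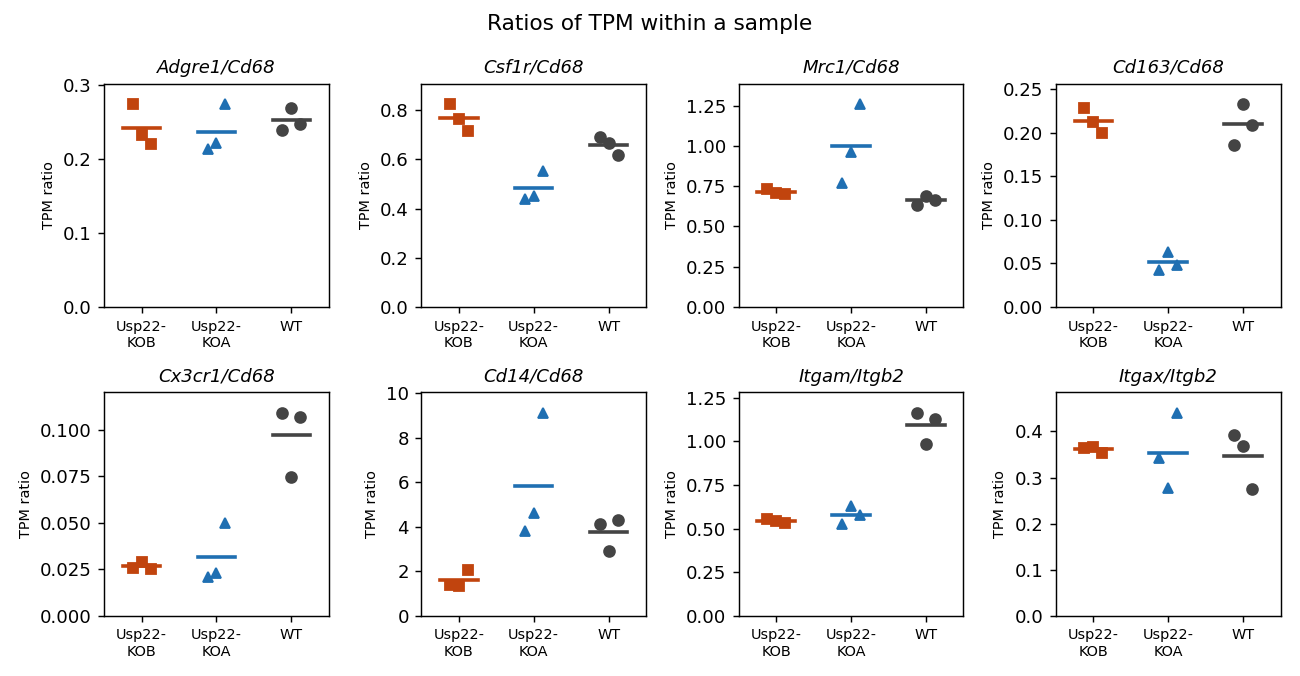
Ratio of the TPM of pairs of genes within a sample, for each sample of Usp22-KOB, Usp22-KOA and WT, with a line at the mean of 3 samples. Adgre1 to Cd68 stays between 0.214 and 0.274 in all samples, Cd163 to Cd68 is lowest in Usp22-KOA, and Cx3cr1 to Cd68 and Itgam to Itgb2 are lower in every knockout sample than in every WT sample.

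Of the dendritic cell genes, Flt3, Xcr1 and Clec9a averaged under 1 TPM over the 9 samples, while Batf3 averaged 5.14 TPM and Cd209a 7.48 TPM. Flt3 is the growth factor receptor of dendritic cells, and Xcr1 and Clec9a mark the conventional subset that takes up dead cells and needs the factor Batf3. Flt3 had 1.14, 0.666 and 0.342 TPM in Usp22-KOB, 1.36, 0.812 and 0.519 TPM in Usp22-KOA and 0.576, 0.634 and 0.240 TPM in WT. Xcr1 had 0.599, 0.977 and 0.605 TPM in Usp22-KOB, 0.898, 0.708 and 1.04 TPM in Usp22-KOA and 0.858, 0.555 and 0.405 TPM in WT. All 3 groups overlapped for both. Clec9a had 2.09, 1.68 and 1.39 TPM in Usp22-KOB, 0.805, 0.747 and 0.298 TPM in Usp22-KOA and 0.514, 0.736 and 0.249 TPM in WT. The 3 Usp22-KOB values of Clec9a lay above the 6 others, and no test was made because its mean was under 1 TPM. Batf3 had 14.4, 8.13 and 5.88 TPM in Usp22-KOB, 4.78, 1.96 and 2.31 TPM in Usp22-KOA and 3.77, 3.75 and 1.30 TPM in WT. It was higher in Usp22-KOB than in WT (1.40 ± 0.39, limma adjusted p = 0.0216), and this call ended without WT replicate 3, Usp22-KOB replicate 1 or Usp22-KOB replicate 2, with adjusted p-values of 0.0510 to 0.0743 and log2 differences of 1.05 to 1.46.

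Cd209a, a mouse homologue of the lectin DC-SIGN, had the largest ratio to WT of the 34 genes. It had 18.4, 20.6 and 9.64 TPM in Usp22-KOB, 4.90, 3.26 and 1.98 TPM in Usp22-KOA and 1.99, 5.30 and 1.25 TPM in WT. Every Usp22-KOB sample lay above every other sample, and the mean of Usp22-KOB was 5.69 times that of WT, a log2 difference of 2.24 ± 0.42 (limma adjusted p = 0.00341). In Usp22-KOA the log2 difference from WT was 0.27 ± 0.42 (adjusted p = 0.603). Cd209a shares 0 transcript 31-mers with the other Cd209 genes.

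Of the genes shared by leukocytes, Ptprc encodes CD45, Cd53 a tetraspanin, Spi1 the factor PU.1 and Aif1 an actin-binding protein used as a marker of microglia and macrophages. Ptprc had 44.3, 42.4 and 20.9 TPM in Usp22-KOB, 28.4, 22.7 and 14.0 TPM in Usp22-KOA and 13.5, 20.4 and 11.0 TPM in WT. Spi1 had 118, 91.0 and 47.2 TPM in Usp22-KOB, 53.9, 43.1 and 22.0 TPM in Usp22-KOA and 31.1, 43.3 and 26.2 TPM in WT. Both were higher in Usp22-KOB than in WT, Ptprc by 1.18 ± 0.35 (limma adjusted p = 0.0262) and Spi1 by 1.26 ± 0.39 (adjusted p = 0.0329), and neither passed the test in Usp22-KOA. Aif1 averaged 44.6 ± 17.7 TPM in Usp22-KOB, 27.0 ± 2.57 TPM in Usp22-KOA and 18.4 ± 7.84 TPM in WT (SD, n = 3 each). The calls of Fcgr1, Tyrobp, Itgam, Ptprc, Spi1 and Aif1 in Usp22-KOB against WT each ended when WT replicate 1 or 3 or Usp22-KOB replicate 1 or 2 was left out, and that of Itgam also without WT replicate 2. For these genes and for Cd14 and Batf3, the log2 differences without such a library were 0.25 to 1.46 and the adjusted p-values 0.0510 to 0.111.

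Cd53 was the 1 gene called higher in both knockouts with no call between them. It had 92.1, 88.8 and 59.7 TPM in Usp22-KOB, 89.2, 85.5 and 55.3 TPM in Usp22-KOA and 26.3, 33.8 and 25.2 TPM in WT. All 6 knockout values lay above all 3 WT values, and the knockouts overlapped. The log2 difference from WT was 1.45 ± 0.22 in Usp22-KOB (limma adjusted p = 0.00115) and 1.38 ± 0.22 in Usp22-KOA (adjusted p = 0.000589), and that between the knockouts was 0.069 ± 0.22 (adjusted p = 0.814). Many leukocytes carry Cd53. The lists of T cell markers and of NK and cytotoxic markers also had higher sums in both knockouts than in WT. Of 8 mast cell markers, 8 were higher in Usp22-KOA than in WT, where 29.4% of all tested genes were. In Usp22-KOB 4 of the 8 were higher and 1 lower than in WT, where 18.7% of all tested genes were higher and 18.4% lower. The neutrophil list had a lower sum in Usp22-KOB than in WT. In Usp22-KOA its sum was 607 to 1528 TPM, which overlapped with the 708 to 756 TPM of WT. Only 2 of 7 B and plasma cell markers were tested and 0 were called in either knockout, too few to set against the share of all tested genes. The summed level of 11 T cell markers was 21.3 to 51.4 TPM in Usp22-KOB, 31.8 to 55.5 TPM in Usp22-KOA and 10.5 to 19.0 TPM in WT, and Trac, on the same list, was not analysed here. For 8 NK and cytotoxic markers the sums were 15.1 to 47.5 TPM in Usp22-KOB, 30.7 to 92.3 TPM in Usp22-KOA and 1.94 to 6.77 TPM in WT. The part of any of these cell types in the level of Cd53 was not tested.

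**Figure D3:**
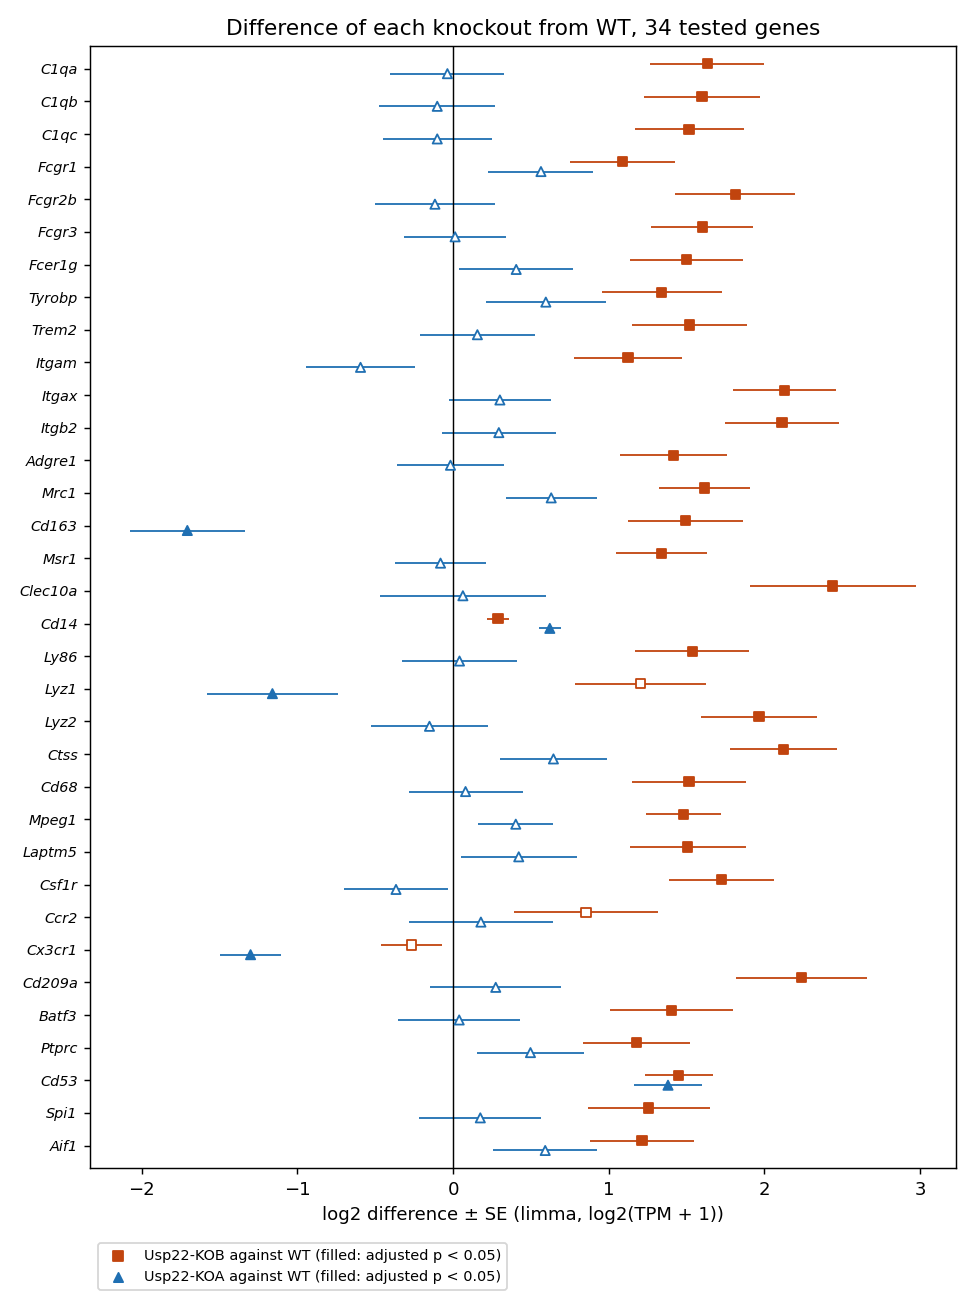
Difference from WT of each of the 34 tested genes on the log2(TPM + 1) scale (limma estimate ± SE) for Usp22-KOB (squares) and Usp22-KOA (triangles), filled where the adjusted p was under 0.05. In Usp22-KOB, 31 symbols are filled and lie right of 0, and in Usp22-KOA 5 are filled, with Cd163, Lyz1 and Cx3cr1 left of 0.

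Markers of other cell types moved in directions of their own. The 8 mast cell markers summed to 95.5 to 129 TPM in Usp22-KOB, 1203 to 2497 TPM in Usp22-KOA and 152 to 186 TPM in WT. In Usp22-KOA 8 of 8 were higher than in WT, where 29.4% of all tested genes were. Although the sum was lower in Usp22-KOB than in WT, 4 of the 8 were higher there and 1 lower. The median log2 difference was 0.81 (limma), and 18.7% of all tested genes were higher and 18.4% lower. The 9 neutrophil markers summed to 158 to 454 TPM in Usp22-KOB, 607 to 1528 TPM in Usp22-KOA and 708 to 756 TPM in WT. Of 7 tested, 1 was higher and 1 lower in Usp22-KOA than in WT, with a median log2 difference of 0.41 (limma). Both shares were below the 29.4% higher and 26.9% lower of all tested genes. In Usp22-KOB 0 were higher and 2 lower than in WT (0 and 5 at an unadjusted p under 0.05), with a median of -0.74. Unlike most of the list, Ly6g, a surface marker of neutrophils, stood out in Usp22-KOA. It had 0.503, 0 and 0.560 TPM in Usp22-KOB, 19.5, 19.3 and 23.7 TPM in Usp22-KOA and 0.839, 0.608 and 0.973 TPM in WT. Mast cells and neutrophils share Cd53, Fcer1g, Tyrobp, Itgb2, Cd14 or Ptprc with macrophages, and their part in the levels of these genes in Usp22-KOA was not tested. The 8 fibroblast markers summed to 798 to 1228 TPM in Usp22-KOB, 188 to 221 TPM in Usp22-KOA and 505 to 924 TPM in WT, and the 8 endothelial markers to 25.3 to 37.9 TPM in Usp22-KOB, 4.71 to 10.8 TPM in Usp22-KOA and 32.7 to 45.7 TPM in WT. Both lists were lowest in Usp22-KOA, as Cd163 was, and their part in that result was not tested. B and plasma cell markers stayed between 4.23 and 18.8 TPM in all 9 samples.

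**Figure D4:**
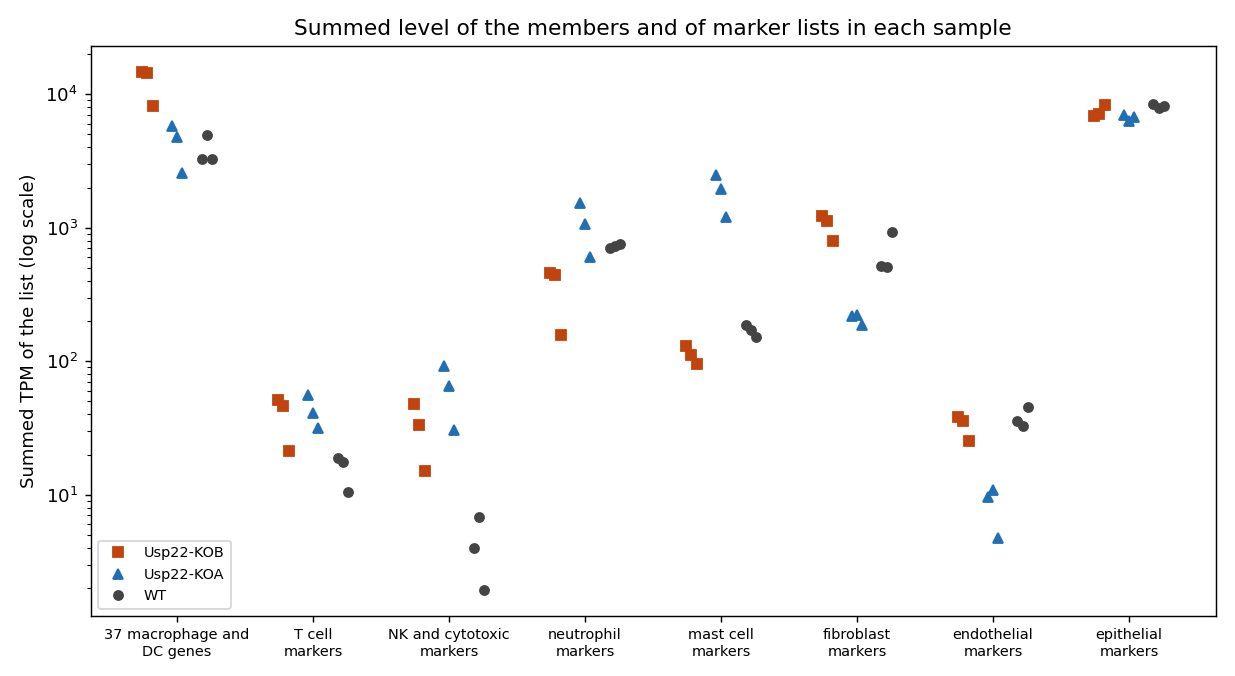
Summed TPM (log axis) of the 37 macrophage and dendritic cell genes and of marker lists of other cell types in each sample of Usp22-KOB, Usp22-KOA and WT. The macrophage and dendritic cell genes are highest in Usp22-KOB, mast cell markers are highest in Usp22-KOA, and fibroblast and endothelial markers are lowest in Usp22-KOA.

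Genes that act with these markers were counted from lists that hold none of the 37. The background for these counts is the share of all tested genes called, 18.7% higher and 18.4% lower in Usp22-KOB and 29.4% higher and 26.9% lower in Usp22-KOA, each against WT. In Usp22-KOB against Usp22-KOA it is 24.2% higher and 27.5% lower. Of 8 ligands of their receptors, 3 were higher and 1 lower in Usp22-KOB than in WT, and 5 were higher and 1 lower in Usp22-KOA. The lower share was 12.5% in each knockout, below the background, and the higher share was 37.5% in Usp22-KOB and 62.5% in Usp22-KOA. Flt3l, the ligand of Flt3, had 16.8, 10.8 and 9.47 TPM in Usp22-KOB, 16.5, 11.5 and 12.2 TPM in Usp22-KOA and 6.41, 7.47 and 5.66 TPM in WT. Both knockouts lay above WT without overlap, by 0.80 ± 0.21 in Usp22-KOB (limma adjusted p = 0.0157) and 0.93 ± 0.21 in Usp22-KOA (adjusted p = 0.00416). Ccl2, the ligand of Ccr2, averaged 98.6 ± 21.3 TPM in Usp22-KOB, 129 ± 36.2 TPM in Usp22-KOA and 59.4 ± 24.7 TPM in WT (SD, n = 3 each) and was called in Usp22-KOA (adjusted p = 0.0111) and not in Usp22-KOB (adjusted p = 0.0783). Xcl1, the ligand of Xcr1 made by T and NK cells, had 8.44, 3.84 and 3.33 TPM in Usp22-KOB, 12.7, 8.82 and 8.89 TPM in Usp22-KOA and 0.834, 1.01 and 0 TPM in WT.

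Of 16 genes of phagocyte signalling and the NADPH oxidase, 9 were higher and 0 lower in Usp22-KOB than in WT, 0 were higher and 1 lower in Usp22-KOA than in WT, and 10 were higher in Usp22-KOB than in Usp22-KOA (limma). At an unadjusted p under 0.05, 13 were higher and 0 lower in Usp22-KOB than in WT, and 0 were higher and 1 lower in Usp22-KOA. Cybb, the catalytic chain of the oxidase, had 94.7, 100.2 and 70.9 TPM in Usp22-KOB, 23.7, 23.1 and 13.7 TPM in Usp22-KOA and 16.9, 22.7 and 15.8 TPM in WT. It was higher in Usp22-KOB than in WT by 2.20 ± 0.22 (limma adjusted p = 0.000136), with no overlap, and had a log2 difference of 0.10 ± 0.22 in Usp22-KOA (adjusted p = 0.73). Cyba, its partner chain, which many cell types express, had 660.0, 658 and 499 TPM in Usp22-KOB, 304, 242 and 163 TPM in Usp22-KOA and 559, 611 and 561 TPM in WT. Cyba was lower in Usp22-KOA than in WT (-1.33 ± 0.20, adjusted p = 0.000457) and in Usp22-KOB had a log2 difference of 0.059 ± 0.20 (adjusted p = 0.844).

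Of 15 transcription factors of myeloid cells, 9 were higher and 1 lower in Usp22-KOB than in WT, and 4 were higher and 4 lower in Usp22-KOA. The shares in Usp22-KOA, 26.7% in each direction, were near the background of 29.4% higher and 26.9% lower, while 60.0% higher in Usp22-KOB compares with 18.7% of all tested genes. Klf4, a factor of monocytes and also of epithelia, averaged 89.6 ± 5.50 TPM in Usp22-KOB, 119 ± 7.04 TPM in Usp22-KOA and 46.1 ± 1.06 TPM in WT (SD, n = 3 each) and was higher in both knockouts. Id2, needed for some dendritic cells and expressed in many tissues, averaged 133 ± 12.8 TPM in Usp22-KOB, 52.3 ± 7.72 TPM in Usp22-KOA and 167 ± 15.2 TPM in WT and was lower in Usp22-KOA (-1.66 ± 0.12, limma adjusted p = 4.66e-06). Tcf4, a factor of plasmacytoid dendritic cells that stromal cells also express, averaged 14.1 ± 0.486 TPM in Usp22-KOB, 7.48 ± 0.447 TPM in Usp22-KOA and 19.0 ± 1.37 TPM in WT and was lower in both knockouts.

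Of 19 further macrophage genes tested, 14 were higher and 2 lower in Usp22-KOB than in WT, 3 were higher and 4 lower in Usp22-KOA than in WT, and 15 were higher and 1 lower in Usp22-KOB than in Usp22-KOA. Spp1, which encodes osteopontin and is also made by tumor cells, averaged 8526 ± 992 TPM in Usp22-KOB, 5266 ± 246 TPM in Usp22-KOA and 14024 ± 354 TPM in WT (SD, n = 3 each) and was lower in both knockouts. Nos2, the inducible nitric oxide synthase, averaged 3.29 ± 0.899 TPM in Usp22-KOB, 6.50 ± 1.15 TPM in Usp22-KOA and 1.59 ± 0.196 TPM in WT and was higher in both. Marco, a scavenger receptor, averaged 1.78 ± 0.0711 TPM in Usp22-KOB, 0.571 ± 0.290 TPM in Usp22-KOA and 5.08 ± 2.55 TPM in WT and was lower in both. Lyve1, a hyaluronan receptor of some resident macrophages and of lymphatic vessels, chosen after its values were seen, had 84.9, 85.8 and 42.1 TPM in Usp22-KOB, 4.07, 6.33 and 3.47 TPM in Usp22-KOA and 16.2, 24.0 and 22.4 TPM in WT. As for Cd163, its 3 groups did not overlap, with Usp22-KOB highest and Usp22-KOA lowest, and the log2 difference from WT was 1.67 ± 0.29 in Usp22-KOB (limma adjusted p = 0.00251) and -1.97 ± 0.29 in Usp22-KOA (adjusted p = 4.0e-04).

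Of 11 further dendritic cell genes tested, 7 were higher and 0 lower in Usp22-KOB than in WT, and 0 were higher and 2 lower in Usp22-KOA (limma). At an unadjusted p under 0.05, 8 were higher and 0 lower in Usp22-KOB, and 1 was higher and 2 lower in Usp22-KOA. Clec4n, the lectin Dectin-2 of myeloid cells, had 232, 222 and 135 TPM in Usp22-KOB, 65.5, 58.7 and 29.3 TPM in Usp22-KOA and 38.8, 53.8 and 36.8 TPM in WT. It was higher in Usp22-KOB without overlap (2.14 ± 0.31, limma adjusted p = 0.000984). Cd83, a marker of mature dendritic cells, averaged 18.7 ± 4.97 TPM in Usp22-KOB, 7.85 ± 1.69 TPM in Usp22-KOA and 6.87 ± 1.45 TPM in WT (SD, n = 3 each) and rose in Usp22-KOB (1.30 ± 0.22, adjusted p = 0.00198). Fscn1, an actin-bundling protein of mature dendritic cells and of many tumor and stromal cells, averaged 102 ± 5.18 TPM in Usp22-KOB, 5.87 ± 1.72 TPM in Usp22-KOA and 64.8 ± 5.66 TPM in WT and was lower in Usp22-KOA (-3.29 ± 0.16, adjusted p = 5.61e-07) and higher in Usp22-KOB (0.65 ± 0.16, adjusted p = 0.0131). Cd209d, a relative of Cd209a chosen after its values were seen, had 80.5, 71.7 and 44.8 TPM in Usp22-KOB, 3.37, 3.15 and 1.39 TPM in Usp22-KOA and 8.95, 18.2 and 4.78 TPM in WT, and its groups stood apart in the same order as those of Cd163. Cd207, the Langerhans cell lectin, was listed at 0 in every library.

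Of 10 monocyte genes, 5 were higher and 2 lower in Usp22-KOB than in WT, and 4 were higher and 3 lower in Usp22-KOA. Of all tested genes, 18.7% were higher and 18.4% lower in Usp22-KOB, and 29.4% higher and 26.9% lower in Usp22-KOA, so the counts lower in both knockouts were near the background. Ly6c2, the surface marker of classical monocytes of the mouse, had 16.1, 11.7 and 3.64 TPM in Usp22-KOB, 46.9, 52.6 and 43.5 TPM in Usp22-KOA and 2.77, 4.77 and 1.37 TPM in WT. Its highest group was Usp22-KOA, without overlap with the others, and the log2 difference from WT was 1.43 ± 0.46 in Usp22-KOB (limma adjusted p = 0.0382) and 3.70 ± 0.46 in Usp22-KOA (adjusted p = 0.000134). Plac8, which epithelial cells also express, averaged 1411 ± 116 TPM in Usp22-KOB, 2152 ± 147 TPM in Usp22-KOA and 2830.5 ± 126 TPM in WT (SD, n = 3 each) and was lower in both knockouts. Itgal, an alpha chain of Itgb2 on most leukocytes, averaged 12.9 ± 4.40 TPM in Usp22-KOB, 8.87 ± 3.30 TPM in Usp22-KOA and 3.35 ± 1.05 TPM in WT and was higher in both.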

How the data were processed

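Polyadenylated RNA of 9 mouse tumor samples was sequenced, 3 in each of Usp22-KOB, Usp22-KOA and WT, grouped by their labels. The authors deposited 1 table of TPM values per gene (transcripts per 1000000 of a library). Salmon, DESeq2 and build mm10 are named, per the submitters' processing notes, with no role, version or annotation stated in the sources used here. Because TPM are not counts, no count model was used and depth is unknown. Quantification over several near-identical transcripts can split reads between relatives.

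The deposited values were taken to log2(TPM + 1). The 13843 of 24493 genes that averaged 1 TPM or more over 9 samples entered 1 limma fit (lmFit, contrasts.fit, eBayes with trend) with a mean per group, and Benjamini-Hochberg adjustment over all of them, called under 0.05. The comparisons were each knockout and the mean of both against WT, and Usp22-KOB against Usp22-KOA. Usp22 was also tested by an exact permutation test. The fit was tested on simulated data. The members and the lists were chosen with earlier results of these data known. Besides the members, the rule for naming took from each list up to 3 genes, by the lowest adjusted p with both knockouts averaged, and genes not analysed or listed at 0; a gene named by it is not reported here. Fits per Ptprc, per Cd68 and without both number 3 samples were added after the data were examined. Relatedness was measured as the share of 31-mers of GENCODE M21 transcripts, since protein sequences were not used here, and 28 members matched a RefSeq promoter of GRCm38.p6, from 250 bases before to 50 bases after the start.

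Alternatives were pseudocounts of 0.1 and 5, no filter or a minimum mean of 5 TPM, scaling by quantiles, by median of ratios or with Mir6236 removed, array weights, limma without a trend, a replicate block, the compared groups alone, the knockouts as 1 group, and leaving out samples. Software was limma 3.58.1 in R 4.3.3, and scipy 1.17.1, Biopython 1.88, numpy 2.4.6, pandas 2.3.3 and matplotlib 3.10.9 in Python 3.11.15.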

Additional observations from a re-analysis of the deposited data

Results flagged for a closer look

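Cd163 was the 1 gene whose difference from WT had opposite directions in the knockouts, with both past the test: the log2 difference between Usp22-KOB and Usp22-KOA was 3.20 (limma adjusted p = 0.000129), made up of 3 of 3 Usp22-KOB samples above WT and 3 of 3 Usp22-KOA samples below it. The levels of fibroblast, endothelial and mast cell markers also differed between the knockouts, and their part in this difference was not tested.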

How the results depend on the processing

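The number of macrophage and dendritic cell genes higher in Usp22-KOB than in WT (31) was 29 to 33 over the alternatives that kept every sample and 23 to 33 as single samples were left out, and that in Usp22-KOB against Usp22-KOA (27) was 25 to 31 and 22 to 31. The number higher with both knockouts averaged against WT (17) was 10 with no filter on low values, 11 by limma without a trend, 28 with array weights, 2 with the 6 knockout samples as 1 group, 30 without both number 3 samples, and 6 to 29 as single samples were left out. The 1 gene lower in that comparison, Cx3cr1, was not tested at a mean of at least 5 TPM and not called with 1 knockout group, so the count was 0 in both. Over all tested genes, 6920 were called in that comparison and 2946 with 1 knockout group. In Usp22-KOA against WT the number of higher genes (2) was 6 with array weights, 14 without both number 3 samples, and 2 to 7 as single samples were left out, and that of lower genes (3) was 2 to 3 as single samples were left out and 2 to 4 over the other alternatives, with 4 under the replicate block. The log2 difference of Usp22 stayed between -2.28 and -1.88. Msr1 turned in direction in Usp22-KOA against WT without both number 3 samples, to 0.27 (limma adjusted p = 0.0477), and the cause was not tested. Over single genes and alternatives, 2636 results kept their side of the threshold, 170 were no longer called and 134 became called. A change of direction was counted only where the result was called in either fit, as for Msr1. Uncalled differences also changed sign: that of C1qa in Usp22-KOA against WT ran between -0.30 and 0.32 as single samples were left out. Rescaling moved the median of all genes by less than 0.1 on the log2 scale. The fit of only the compared groups has no counterpart for both knockouts averaged.

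Whether the replicate numbers pair the samples was not settled, because the correlations were low but not alike. Deviations of samples with the same number correlated at -0.125 to 0.276, and 5 of 9 samples correlated best with their own number. The lowest value was that of Usp22-KOB and WT number 1, and the highest that of Usp22-KOA and Usp22-KOB number 3. With the number as a replicate block, 30 genes were higher with both knockouts averaged and 7 in Usp22-KOA. TPM gives no depth, so what depth limits is unknown, and genes averaging under 1 TPM over all 9 samples, such as Clec9a, were not tested in the reported comparisons.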
